A study of Mus musculus with 137 samples.

Results

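The villus compartment of the mouse duodenum, the first part of the small intestine, was compared after 90 days of drinking water with 20 ppm hexavalent chromium, Cr(VI), and with 0 ppm. The members were chosen by label alone and comprised 9 libraries, 6.57% of those in the series of 71 mice, namely 5 villus libraries at 20 ppm from mice 321, 323, 325, 327 and 328 and 4 villus libraries at 0 ppm from mice 3, 5, 6 and 7. All 9 mice were female wild-type B6C3F1 animals that drank ad libitum, and their age was not given in the sources used here. The treated mice received Cr(VI) as sodium dichromate dihydrate, a strong oxidant that is soluble in water, and both groups were sampled on day 91. The same mice also gave crypt libraries, and the wider series held 0, 0.1, 1.4, 5, 20, 60 and 180 ppm in both compartments on days 8 and 91. Each library was made from a fixed, paraffin-embedded section from which the crypt region had first been removed, and the tissue left on the slide was scraped as villus, so the sample also held lamina propria and any muscle or attached tissue. RNA was read with TempO-Seq, in which a pair of detector oligos is ligated on each target and counted, and 30146 probes for 21450 genes were counted.

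Villus enterocytes are short-lived absorptive cells that arise in the crypt, move up the villus and are shed at its tip. Their apical membrane, the brush border, carries the enzymes and transporters that finish digestion, and the cell interior re-esterifies fat and packs it into chylomicrons. Cr(VI) enters cells as chromate through anion transporters and is reduced inside them, a process that consumes glutathione and other thiols, and the transcription factor NRF2 is the general regulator of the genes that supply them.

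The 20 ppm libraries were deeper and more complex than the controls, and this difference was followed in the comparison of 20 with 0 ppm. Total counts ran from 1667014 to 2678299 at 0 ppm and from 2757622 to 5868978 at 20 ppm (exact two-sided permutation test, p = 0.0159, smallest possible p = 0.00794). Probes with at least 1 count averaged 14225 ± 1223 (SD, n = 4) at 0 ppm and 19468 ± 1066 (SD, n = 5) at 20 ppm. After every library was thinned to 1463938 counts, the averages were 14158 ± 1184 and 18551 ± 1008 (exact two-sided permutation test, p = 0.00794, the smallest p that 126 arrangements allow), so the means lay 5243 probes apart with all counts and 4393 apart at equal depth, and no library of one group reached the other. The same groups also differed in the TMM factor, the scaling edgeR gives each library, which was 0.976 to 1.138 at 0 ppm and 0.759 to 0.798 at 20 ppm. A pair of further fits was therefore set beside the main one for every gene, one scaled by DESeq2 size factors, and one that took each library's probes detected after thinning as a covariate. Both were run for 20 against 0 ppm only. The other comparisons were repeated with thinned counts and with DESeq2, but not with these fits. The slope of the covariate was fitted over all 28 groups of the series, from differences between libraries of the same group. As the groups compared here did not overlap in that measure, its correction extends across the gap between them. What the covariate takes up and what the treatment does cannot be told apart.

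**Figure D1:**
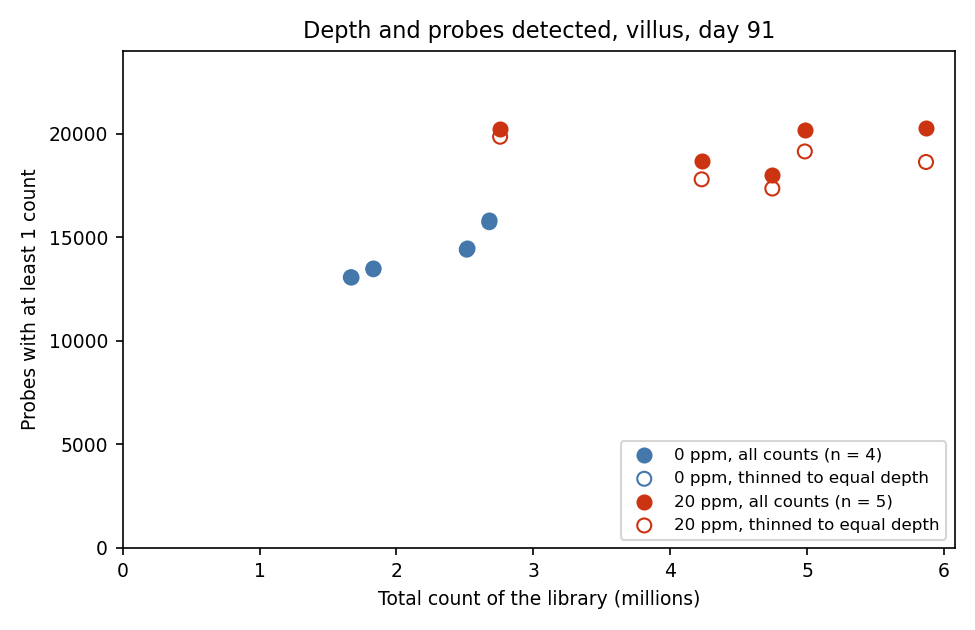
Probes with at least 1 count (y axis) against the total count (x axis) for the 9 villus libraries of day 91. Filled points use all counts and open points the counts thinned to 1463938 per library. The 5 libraries at 20 ppm lie between 17989 and 20266 probes, or 17347 and 19849 after thinning, and the 4 at 0 ppm between 13091 and 15835, or 13063 and 15722, where the open points lie behind the filled ones.

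The tissue label was checked against marker genes. Levels are CPM, counts scaled to the TMM-adjusted library total. Vil1, the actin bundler of the microvillus, was abundant in both groups, with 6545 ± 1019.9 CPM at 20 ppm and 7119 ± 907 CPM at 0 ppm (log2 difference -0.12 ± 0.23, adjusted p = 0.805), and Alpi, intestinal alkaline phosphatase, averaged 3009 ± 805 CPM at 20 ppm and 2582 ± 185 CPM at 0 ppm. The probes of Sis and Lct, which encode sucrase-isomaltase and lactase, were at or near 0 or low, with 0.0437 ± 0.0977 CPM at 20 ppm and 1.63 ± 3.26 CPM at 0 ppm for Sis and 4.93 ± 1.22 CPM at 20 ppm and 27.9 ± 17.9 CPM at 0 ppm for Lct. Summed over 11 enterocyte markers the level was 59473 to 82345 CPM at 0 ppm and 120682 to 189436 CPM at 20 ppm. Of the 11, 1, Fabp2, rose and 0 fell, against 2 lower with DESeq2 size factors and 3 by DESeq2. Fabp2 alone held 20805 to 29423 CPM of these sums at 0 ppm and 78314 to 144491 CPM at 20 ppm. The higher sum at 20 ppm thus rests largely on this gene. The 9 crypt markers summed to 146 to 658 and 265 to 469 CPM. Pancreatic acinar markers, which the villus should lack, summed to 54551 CPM in control mouse 7, 35049 CPM in mouse 328 and 13146 CPM in mouse 323 at 20 ppm, 5672 CPM in control mouse 5 and at most 1517 CPM in the other 5 libraries, and edgeR called 0 of 11 between the groups (0 at an unadjusted p under 0.05 higher and 0 lower, and 0 and 0 by DESeq2). In such bulk samples fewer cells of a type and less RNA per cell cannot be told apart.

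At an adjusted p under 0.1, 3879 of 26365 probes tested and 3513 genes differed between 20 and 0 ppm, and more genes were higher (2660) than lower (882), a few genes having probes in both directions. By 1 probe a gene, the probe with the highest total count, 3025 of 19020 genes were called (15.9%), 2359 higher (12.4%) and 666 lower (3.5%). With DESeq2 size factors the split was 1498 higher (7.88%) and 1233 lower (6.48%), since that scaling moved the median log2 difference of all genes from 0.45 to 0.13. That median of 0.45 also rested on probes near 0 counts. A gene whose libraries of one group held at most 3 counts was set at the bound this floor allows. It was set at 0 where the other group did not exceed the floor. With this rule the median was 0 over 17924 genes. By level, the fitted median was 0.05 at 3 to 10 CPM and 0.06 at 10 to 30 CPM. It was 0.28 at 30 to 100 CPM, 0.59 at 100 to 300 CPM and 0.79 above 300 CPM. Calls followed abundance, with 56.7% of 683 genes above 300 CPM called higher and 8.35% lower, against 2.20% and 1.08% of 7499 genes under 3 CPM. All 666 lower calls and 1498 of the 2359 higher calls (63.5%) held with DESeq2 size factors. Because that scaling moved log2 differences down, it favoured the lower calls and was no test of them. With the detection covariate 992 genes (5.22%) were higher and 641 (3.37%) lower, and 970 of the higher calls (41.1%) and 313 of the lower calls (47.0%) held.

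Among the genes that fell most clearly were Pck1, an enzyme of glucose production, and Apob, the structural protein of chylomicrons. The 12 named here had the smallest adjusted p among 276 genes that were called lower, did not overlap between the groups and averaged at least 20 CPM in the higher group, a pool set against 436 of all 19020 genes (2.29%) whose 20 ppm libraries all lay below the controls. Their separation was therefore fixed by the choice. All 12 calls held under the covariate and each omission of a library, and under DESeq2 size factors, a scaling that favours lower calls. Pck1 (chr2:173153048-173159273, plus strand, GRCm38), cytosolic phosphoenolpyruvate carboxykinase and the committed enzyme of gluconeogenesis, had 865, 1401, 725 and 229 CPM at 0 ppm and 22.02, 15.5, 18.7, 22.5 and 33.9 CPM at 20 ppm, with the mice in the order given above. Its log2 difference was -5.15 ± 0.63, adjusted p = 6.94e-10, and even control mouse 7, which had the fewest of the controls, exceeded every treated mouse. Apob (chr12:7977648-8016835, plus strand), the scaffold of chylomicrons, had 949.6, 771, 554 and 409 CPM at 0 ppm and 85.7, 118, 124, 55.1 and 172 CPM at 20 ppm, a log2 difference of -2.59 ± 0.35, adjusted p = 1.14e-08. A second Apob probe fell as well, by 2.46 on the log2 scale.

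Mme (chr3:63241537-63386030, plus strand) encodes neprilysin, a peptidase of the brush border membrane. It had 2668, 2356, 2615 and 1544 CPM at 0 ppm and 205, 539, 473, 259 and 759 CPM at 20 ppm (log2 difference -2.36 ± 0.40, adjusted p = 5.48e-06). The groups stood far apart for this probe, while the other Mme probes differed by -0.92 (adjusted p = 0.059) and -0.21 (adjusted p = 0.81). Btnl6, a butyrophilin-like protein of enterocytes that pairs with Btnl1 in the maintenance of intraepithelial gamma delta T cells, had 711, 746, 838 and 552 CPM at 0 ppm and 191, 200.1, 159, 86.2 and 202 CPM at 20 ppm (log2 difference -2.08 ± 0.30, adjusted p = 6.36e-08). H2-D1 (chr17:35262730-35267499, plus strand), a classical class I antigen-presenting molecule, had 221, 191, 218 and 135 CPM at 0 ppm and 44.3, 55.8, 45.02, 10.1 and 64.7 CPM at 20 ppm (log2 difference -2.11 ± 0.36, adjusted p = 4.72e-06), with the lowest value in mouse 327. Class I genes are close in sequence, so probes for one may also read another.

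Gsdmd, gasdermin D, which forms pores in the membrane of dying or stressed cells, had 402, 416, 547 and 331 CPM at 0 ppm and 154, 168, 104, 124 and 185 CPM at 20 ppm (log2 difference -1.53 ± 0.25, adjusted p = 2.07e-06). Entpd8, an ectonucleotidase, had 188, 202, 112 and 122 CPM at 0 ppm and 20.2, 31.2, 23.7, 13.4 and 39.3 CPM at 20 ppm (log2 difference -2.60 ± 0.38, adjusted p = 1.39e-07), but its other probes were not called, at 0.92 and -0.74. Ogt, the transferase that adds O-linked N-acetylglucosamine to nuclear and cytosolic proteins, had 79.8, 83.9, 75.5 and 74.2 CPM at 0 ppm and 17.1, 17.6, 15.7, 2.87 and 35.8 CPM at 20 ppm (log2 difference -2.11 ± 0.36, adjusted p = 5.76e-06). The remaining 4, Rabgap1l, Smim22, Serhl and Nat9, fell by 1.67, 2.13, 1.54 and 1.41 on the log2 scale.

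Among the genes that rose most clearly were ones for chromatin and RNA-binding proteins, an oxidase of the endoplasmic reticulum and the actin cytoskeleton. They were the 12 with the smallest adjusted p among 1267 called higher with no overlap and at least 20 CPM at 20 ppm. Of all 19020 genes 1767 (9.29%) had every 20 ppm library above every control. Safb (chr17:56584825-56606294, plus strand), scaffold attachment factor B, which binds chromatin and RNA, had 77.8, 94.4, 76.2 and 109.8 CPM at 0 ppm and 397, 403, 425, 440.4 and 251 CPM at 20 ppm (log2 difference 2.10 ± 0.21, adjusted p = 5.84e-13). Mouse 328 was the lowest of the treated mice, yet still above every control. A second Safb probe was not called, at 0.20 (adjusted p = 0.6). Taf1d (chr9:15306214-15316991, plus strand), a subunit of the selectivity factor of RNA polymerase I, had 48.4, 27.96, 101 and 119.7 CPM at 0 ppm and 301, 378, 386, 525 and 377 CPM at 20 ppm (log2 difference 2.40 ± 0.28, adjusted p = 1.67e-10), and of its other probes one rose by 3.33 and one was at 0.23 (adjusted p = 0.97).

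Ero1l, the oxidase that drives disulphide bond formation in the endoplasmic reticulum, had 152, 166, 239 and 264 CPM at 0 ppm and 982, 1012, 968, 1494 and 816 CPM at 20 ppm (log2 difference 2.36 ± 0.26, adjusted p = 4.74e-11), and its second probe rose by 3.13. Stk40 (chr4:126103957-126141029, plus strand), a kinase-like protein, had 103, 153, 68.6 and 91.8 CPM at 0 ppm and 541, 464, 571, 899 and 289 CPM at 20 ppm (log2 difference 2.41 ± 0.27, adjusted p = 5.84e-11). The spread among the treated mice was wide for Stk40, from mouse 328 to mouse 327, and no control came near. Kmt2d, a histone H3 lysine 4 methyltransferase, had 81.7, 60.7, 96.6 and 97.9 CPM at 0 ppm and 272, 246, 255, 304 and 208 CPM at 20 ppm (log2 difference 1.61 ± 0.20, adjusted p = 9.47e-10). Agps, the peroxisomal enzyme that makes the ether bond of plasmalogens, had 44.4, 43.8, 47.1 and 43.6 CPM at 0 ppm and 273, 257, 247, 407 and 125 CPM at 20 ppm (log2 difference 2.55 ± 0.32, adjusted p = 1.29e-09).

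Capza2, an actin capping protein, had 318, 148, 303 and 310.2 CPM at 0 ppm and 1159, 944, 1010.3, 1532 and 593 CPM at 20 ppm (log2 difference 1.96 ± 0.23, adjusted p = 1.60e-10), and Tes, the focal adhesion protein testin, had 211, 162, 203 and 192 CPM at 0 ppm and 807, 605, 681, 928 and 539 CPM at 20 ppm (log2 difference 1.89 ± 0.24, adjusted p = 1.09e-09). Both groups of libraries stayed apart for these cytoskeletal genes, although a second Tes probe was at -0.06 (adjusted p = 0.95). Dnajc5, a co-chaperone, Abhd17b, a depalmitoylase, Lin7c, a scaffold of epithelial polarity complexes, and Rbbp6, a ubiquitin ligase, rose by 1.89 ± 0.22, 2.04 ± 0.24, 1.74 ± 0.21 and 2.40 ± 0.30 on the log2 scale. Mouse 327 was the highest of the 9 libraries in 10 of the 12 genes that rose. Single probes stand for genes here: of 778 other probes for called genes with at least 20 CPM, 558 had the sign of the chosen probe, 267 were called in its direction and 18 in the opposite one.

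**Figure D2:**
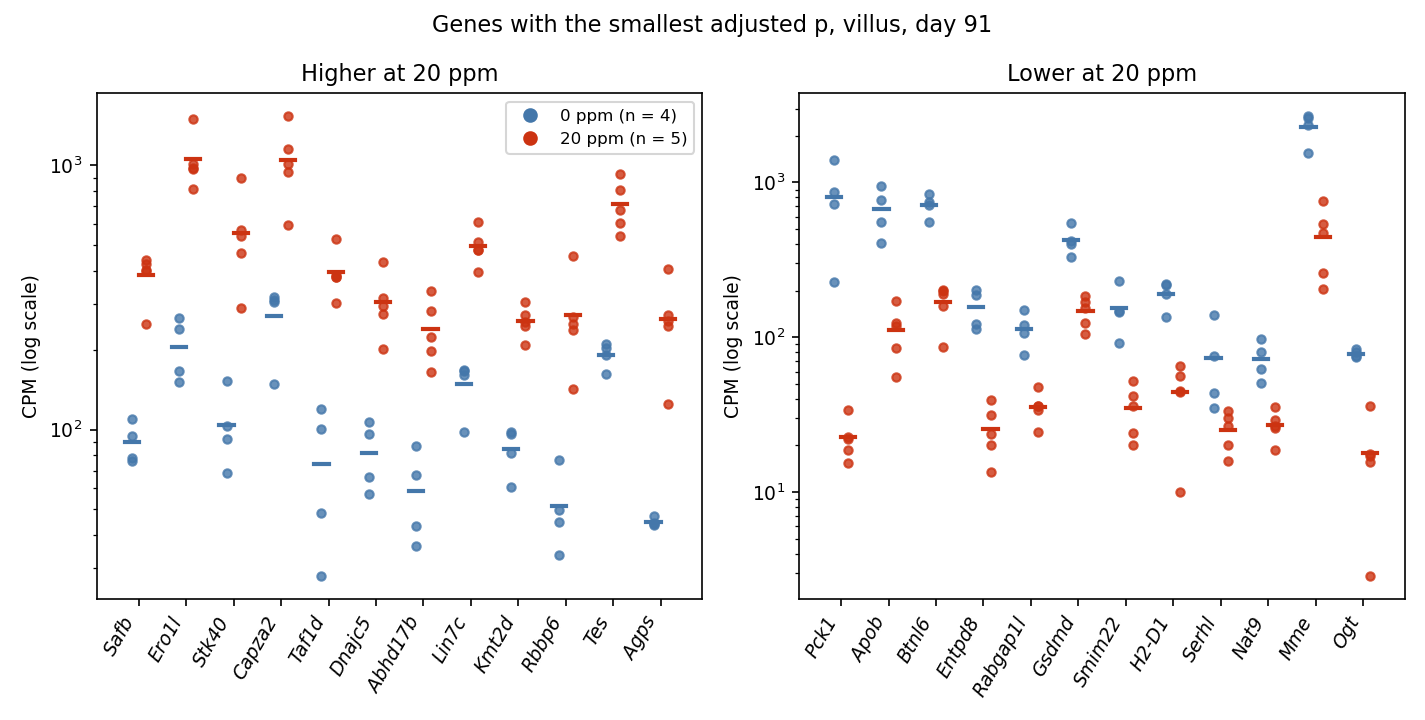
CPM on a log axis for the 12 genes called higher (left) and the 12 called lower (right) at 20 ppm with the smallest adjusted p and no overlap between groups. Each point is 1 library, bars are group means, and each position on the x axis is a gene. In all 24 genes the 4 libraries at 0 ppm and the 5 at 20 ppm separate, with Pck1 widest apart at 22.5 against 805 CPM.

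The lists that follow were chosen with earlier results of these data known and are described by counts and medians, to be read against 12.4% of all genes called higher, 3.5% called lower and a median of 0.45. Genes of the brush border leaned lower: 2 of 27 members rose and 7 fell, with a median log2 difference of -0.56, against 1 and 12 with DESeq2 size factors and 1 and 4 with the covariate. Mgam, maltase-glucoamylase, which splits starch fragments to glucose, averaged 1988 ± 342 CPM at 20 ppm and 5659 ± 1239.6 CPM at 0 ppm (log2 difference -1.51 ± 0.29, adjusted p = 5.00e-05). Dpp4, a dipeptidyl peptidase that also inactivates incretins, averaged 14.1 ± 4.08 CPM at 20 ppm and 63.5 ± 13.3 CPM at 0 ppm (log2 difference -2.16 ± 0.46, adjusted p = 0.000349). Ezr, which links the membrane to microvillar actin, fell (-1.41 ± 0.43, adjusted p = 0.0188, and adjusted p = 0.244 with the covariate), as did Cdhr2, a cadherin between microvilli (-1.15 ± 0.35, adjusted p = 0.0193, and adjusted p = 0.738 with the covariate), Ace (-1.40 ± 0.45, adjusted p = 0.028, and adjusted p = 0.336 with the covariate and up to 0.105 without mouse 5) and Eps8 (-0.86 ± 0.32, adjusted p = 0.0745, and adjusted p = 0.416 with the covariate and up to 0.234 without mouse 321, mouse 325, mouse 327 or mouse 3). Against this direction, Enpep, glutamyl aminopeptidase, averaged 1729 ± 557 CPM at 20 ppm and 414 ± 94.2 CPM at 0 ppm (log2 difference 2.06 ± 0.45, adjusted p = 0.000415), and Myo7b, a motor of the microvillus tip, also rose (0.69 ± 0.26, adjusted p = 0.0801, and adjusted p = 0.316 with DESeq2 size factors and 0.337 with the covariate and up to 0.238 without mouse 321, mouse 323, mouse 325, mouse 327, mouse 3, mouse 5 or mouse 7).

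Of the transporters for sugars, amino acids and peptides, 1 of 21 members rose and 6 fell, with a median log2 difference of -0.66, against 1 and 10 with DESeq2 size factors and 1 and 3 with the covariate. Slc6a19, the main neutral amino acid transporter of the brush border, averaged 231 ± 44.2 CPM at 20 ppm and 688 ± 216 CPM at 0 ppm (log2 difference -1.58 ± 0.32, adjusted p = 0.000163). Slc6a20a, which carries proline and other imino acids, averaged 116 ± 23.9 CPM at 20 ppm and 381 ± 142 CPM at 0 ppm (log2 difference -1.72 ± 0.36, adjusted p = 0.000244). The peptide transporter Slc15a1 (-1.09 ± 0.42, adjusted p = 0.0785, and adjusted p = 0.489 with the covariate and up to 0.2 without mouse 327, mouse 328, mouse 3, mouse 5 or mouse 6), the cystine and basic amino acid exchanger Slc7a9 (-1.20 ± 0.44, adjusted p = 0.0629, and adjusted p = 0.382 with the covariate and up to 0.164 without mouse 321, mouse 325, mouse 327, mouse 3 or mouse 6) and the proton-coupled Slc36a1 (-2.51 ± 0.92, adjusted p = 0.0627, and adjusted p = 0.141 with the covariate and up to 0.249 without mouse 321, mouse 325, mouse 327 or mouse 6) fell as well. The 1 member that rose was Slc2a1, the glucose transporter of proliferating and hypoxic cells, from a low level, with 20.1 ± 6.97 CPM at 20 ppm and 2.58 ± 3.08 CPM at 0 ppm (log2 difference 2.88 ± 0.87, adjusted p = 0.0174). Slc5a1, the sodium-glucose cotransporter, averaged 1723 ± 145 CPM at 20 ppm and 2713 ± 617 CPM at 0 ppm and was not called (log2 difference -0.66 ± 0.30, adjusted p = 0.141), though its groups did not overlap.

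Lipid absorption genes moved both ways, and 5 of 28 members rose and 7 fell, with a median log2 difference of -0.32, against 5 and 3 with the covariate. Fabp2, the intestinal fatty acid binding protein, had 22999.9, 20805, 29423 and 25261 CPM at 0 ppm and 95971, 114183, 120534, 144491 and 78314 CPM at 20 ppm (log2 difference 2.169 ± 0.36, adjusted p = 2.81e-06). Every treated mouse lay far above every control. Plin2, a coat protein of lipid droplets, averaged 631 ± 208 CPM at 20 ppm and 209.6 ± 74.2 CPM at 0 ppm (log2 difference 1.59 ± 0.27, adjusted p = 5.79e-06), Gpat3, an acyltransferase of triglyceride synthesis, 556 ± 152 CPM at 20 ppm and 190.2 ± 23.3 CPM at 0 ppm (log2 difference 1.55 ± 0.30, adjusted p = 8.11e-05), and Acsl5, which activates fatty acids, 3120.2 ± 743 CPM at 20 ppm and 872 ± 227 CPM at 0 ppm (log2 difference 1.84 ± 0.37, adjusted p = 0.000113). Apart from Apob, the lower members were the sterol exporters Abcg5 (-1.91 ± 0.43, adjusted p = 0.000721) and Abcg8 (-1.37 ± 0.50, adjusted p = 0.0628, and adjusted p = 0.365 with the covariate and up to 0.147 without mouse 321, mouse 327, mouse 5 or mouse 6), the fatty acid receptor Cd36 (-2.53 ± 0.62, adjusted p = 0.00218), Plin3 (-1.03 ± 0.27, adjusted p = 0.00429, and adjusted p = 0.213 with the covariate), Agpat2 (-1.31 ± 0.36, adjusted p = 0.00673, and adjusted p = 0.18 with the covariate) and the cholesterol esterifying enzyme Soat2 (-1.67 ± 0.54, adjusted p = 0.0289, and adjusted p = 0.301 with the covariate). Apoa1 was not called, with 14967 ± 3356 CPM at 20 ppm and 12085 ± 2462 CPM at 0 ppm (log2 difference 0.31 ± 0.42, adjusted p = 0.686), and neither was Apoa4, with 8438 ± 2396 CPM at 20 ppm and 18613 ± 7299 CPM at 0 ppm (log2 difference -1.14 ± 0.47, adjusted p = 0.108).

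Of genes of gluconeogenesis and glutamine use, 2 of 20 members rose and 4 fell, with a median log2 difference of -0.09, against 2 and 7 with DESeq2 size factors and 1 and 5 with the covariate. With Pck1, the other enzymes of the last steps to glucose were lower: G6pc, the glucose-6-phosphatase, averaged 5.78 ± 2.44 CPM at 20 ppm and 47.99 ± 6.26 CPM at 0 ppm (log2 difference -3.05 ± 0.96, adjusted p = 0.0236, and adjusted p = 0.226 with the covariate), and Fbp1, a fructose bisphosphatase, averaged 25.2 ± 14.3 CPM at 20 ppm and 79.2 ± 45.1 CPM at 0 ppm (log2 difference -1.64 ± 0.53, adjusted p = 0.0284, and up to 0.102 without mouse 6). Fbp2, the muscle form of that enzyme, averaged 306 ± 58.6 CPM at 20 ppm and 147 ± 43.5 CPM at 0 ppm (log2 difference 1.06 ± 0.25, adjusted p = 0.00136). Aldh18a1, which starts proline synthesis from glutamate, fell (-1.65 ± 0.45, adjusted p = 0.00663). G6pc3, whose 4 control libraries held at most 3 counts, was at least 2.27-fold higher.

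Genes of glutathione supply and NRF2 targets leaned higher: 17 of 41 members rose and 2 fell, with a median log2 difference of 0.56 (0.55 with floor genes at their bounds), against 14 and 4 with DESeq2 size factors and 10 and 0 with the covariate. The list median lay 0.11 above that of all genes. Several members named below averaged more than 300 CPM at 20 ppm, a range where 56.7% of all 683 genes were called higher. From 100 to 300 CPM the share was 46.4% of 1477 genes. Gclc and Gclm, the catalytic and modifier subunits of the enzyme that limits glutathione synthesis, both rose. Gclc had 8.47, 0, 13.03 and 22.6 CPM at 0 ppm and 60.1, 91.1, 61.02, 107 and 81.5 CPM at 20 ppm (log2 difference 2.84 ± 0.44, adjusted p = 5.36e-07), and Gclm had 53.8, 107, 117 and 67.3 CPM at 0 ppm and 445, 292, 310.1, 427 and 194 CPM at 20 ppm (log2 difference 1.95 ± 0.32, adjusted p = 2.67e-06). Gsr, glutathione reductase, which regenerates glutathione, averaged 1345 ± 244 CPM at 20 ppm and 384 ± 129.6 CPM at 0 ppm (log2 difference 1.81 ± 0.30, adjusted p = 3.24e-06). Gsta2, a glutathione transferase, had 170.5, 81.8, 526 and 337 CPM at 0 ppm and 2153, 2128, 2581, 3826 and 1849.7 CPM at 20 ppm (log2 difference 3.17 ± 0.50, adjusted p = 7.49e-07). Its paralog Gsta1 averaged 5187 ± 1285 CPM at 20 ppm and 1199 ± 650.2 CPM at 0 ppm (log2 difference 2.11 ± 0.46, adjusted p = 0.000377), and reads of these near-identical genes may be shared.

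Txnrd1, thioredoxin reductase, averaged 949 ± 241 CPM at 20 ppm and 337 ± 59.7 CPM at 0 ppm (log2 difference 1.49 ± 0.27, adjusted p = 1.26e-05), and Me1, a source of NADPH, averaged 499.8 ± 64.9 CPM at 20 ppm and 133 ± 33.9 CPM at 0 ppm (log2 difference 1.90 ± 0.37, adjusted p = 5.43e-05). Gpx1 (2.52 ± 0.55, adjusted p = 0.000488, and adjusted p = 0.22 with the covariate) and Gpx2 (2.07 ± 0.59, adjusted p = 0.0114, and adjusted p = 0.324 with the covariate), which reduce peroxides, Prdx1 (0.89 ± 0.26, adjusted p = 0.0127, and adjusted p = 0.14 with the covariate), Srxn1 (1.16 ± 0.36, adjusted p = 0.0231, and adjusted p = 0.13 with DESeq2 size factors), Mgst1 (1.25 ± 0.29, adjusted p = 0.00102), the cystine importer Slc7a11 (7.26 ± 2.64, adjusted p = 0.0616, and adjusted p = 0.219 with the covariate and up to 0.133 without mouse 325, mouse 3, mouse 5, mouse 6 or mouse 7) and Nfe2l2 itself, the gene of NRF2 (0.75 ± 0.28, adjusted p = 0.0764, and adjusted p = 0.297 with DESeq2 size factors and 0.258 with the covariate and up to 0.223 without mouse 321, mouse 323, mouse 327, mouse 328, mouse 3, mouse 5 or mouse 6), rose too. The other 3 that rose were Gsta4, Gstm3 and Taldo1. Thioredoxin, Txn1, fell, with 349 ± 146 CPM at 20 ppm and 900.05 ± 157 CPM at 0 ppm (log2 difference -1.37 ± 0.30, adjusted p = 0.000573, and adjusted p = 0.148 with the covariate), and so did the transferase Gstt1 (-1.60 ± 0.43, adjusted p = 0.00531, and adjusted p = 0.115 with the covariate). Nqo1 and Hmox1, both widely used readouts of NRF2, were not called: Nqo1 averaged 79.03 ± 32.6 CPM at 20 ppm and 87.3 ± 22.3 CPM at 0 ppm (log2 difference -0.14 ± 0.33, adjusted p = 0.852), and Hmox1 was at 0 in the controls and 3.12 ± 2.57 CPM at 20 ppm (adjusted p = 0.112).

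NRF2 binds DNA at the antioxidant response element, whose core is written TGACNNNGC. This motif was searched on both strands in the 250 bases before each RefSeq start of a gene (GRCm38.p6). A gene with several starts counted if any of them had the motif. Mgst1 had 2 starts and Txnrd1 3, with the motif at 1 in each gene. The motif was present in 3112 of 27025 genes with a promoter (11.5%), in 5 of the 14 list members called higher that had one (35.7%) and in 5 of the 18 not called (27.8%). The 5 called members are shown because their level and this motif can be read side by side, with the motif in capitals, each written 5′ to 3′ on the strand of the gene. They are Gclm (chr3:122245307-122245556, plus strand, motif 126 bases before the start), Mgst1 (chr6:138140277-138140526, plus strand, 48 bases before), Nfe2l2 (chr2:75704664-75704913, minus strand, 232 bases before), Prdx1 (chr4:116685349-116685598, plus strand, 125 bases before) and Txnrd1 (chr10:82858956-82859205, plus strand, 84 bases before).
Gclm: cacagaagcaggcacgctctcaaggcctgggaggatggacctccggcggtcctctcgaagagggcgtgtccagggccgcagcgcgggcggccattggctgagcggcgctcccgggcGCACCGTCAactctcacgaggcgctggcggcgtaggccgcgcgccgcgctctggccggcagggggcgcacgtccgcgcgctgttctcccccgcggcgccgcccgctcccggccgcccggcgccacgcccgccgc
Mgst1: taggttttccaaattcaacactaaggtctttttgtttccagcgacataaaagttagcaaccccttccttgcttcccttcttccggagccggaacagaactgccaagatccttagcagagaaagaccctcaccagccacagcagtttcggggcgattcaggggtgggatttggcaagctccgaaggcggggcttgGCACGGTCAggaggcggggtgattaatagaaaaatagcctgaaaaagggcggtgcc
Nfe2l2: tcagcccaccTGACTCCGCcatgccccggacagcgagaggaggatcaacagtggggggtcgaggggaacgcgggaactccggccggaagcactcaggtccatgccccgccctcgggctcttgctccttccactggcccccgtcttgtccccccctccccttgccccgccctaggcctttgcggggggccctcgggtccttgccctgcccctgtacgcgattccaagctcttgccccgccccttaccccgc
Prdx1: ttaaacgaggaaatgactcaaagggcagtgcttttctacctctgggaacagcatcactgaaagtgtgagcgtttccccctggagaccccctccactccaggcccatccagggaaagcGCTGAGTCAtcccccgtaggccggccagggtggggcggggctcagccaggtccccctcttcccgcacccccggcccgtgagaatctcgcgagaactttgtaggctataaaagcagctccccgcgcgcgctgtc
Txnrd1: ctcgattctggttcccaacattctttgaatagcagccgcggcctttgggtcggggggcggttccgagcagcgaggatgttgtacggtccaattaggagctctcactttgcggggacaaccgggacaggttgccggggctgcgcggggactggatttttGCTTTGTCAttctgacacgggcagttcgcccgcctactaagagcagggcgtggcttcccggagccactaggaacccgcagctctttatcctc
In Nfe2l2 the motif lay on the gene's own strand and in the other 4 on the opposite one. A match of letters is a description of the window and not a measured binding site.

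Of xenobiotic metabolism genes, 5 of 39 members rose and 2 fell, with a median log2 difference of 0.15 (-0.19 with DESeq2 size factors), against 4 and 6 with DESeq2 size factors. Abcb1a, the efflux pump P-glycoprotein, averaged 552 ± 157 CPM at 20 ppm and 126 ± 46.4 CPM at 0 ppm (log2 difference 2.14 ± 0.32, adjusted p = 2.76e-07), and Adh1, alcohol dehydrogenase, averaged 3588 ± 872 CPM at 20 ppm and 931 ± 85.1 CPM at 0 ppm (log2 difference 1.95 ± 0.45, adjusted p = 0.000894). Cyp3a13, a CYP3A enzyme of mouse intestine, averaged 359.6 ± 122 CPM at 20 ppm and 1049 ± 369 CPM at 0 ppm (log2 difference -1.54 ± 0.33, adjusted p = 0.000382), while Cyp1a1 was not called (0.70 ± 0.70, adjusted p = 0.55). Among genes for metals, 2 of 28 members rose and 4 fell, with a median log2 difference of -0.18 (-0.08 with floor genes at their bounds), against 1 and 0 with the covariate. Ftl1, the ferritin light chain, averaged 487 ± 78.9 CPM at 20 ppm and 261 ± 17.6 CPM at 0 ppm (log2 difference 0.90 ± 0.24, adjusted p = 0.00479), and Slc39a4, the zinc importer of the brush border, averaged 64.2 ± 25.6 CPM at 20 ppm and 158 ± 34.5 CPM at 0 ppm (log2 difference -1.30 ± 0.39, adjusted p = 0.0188, and adjusted p = 0.332 with the covariate). Mt2, a metallothionein, had 0, 0, 21.8 and 37.9 CPM at 0 ppm and 314, 58.2, 61.02, 62.7 and 90.7 CPM at 20 ppm (log2 difference 2.94 ± 0.94, adjusted p = 0.0271), with mouse 321 far above the other treated mice, and the call was lost with the covariate (adjusted p = 0.119) and without mouse 321, mouse 3 or mouse 5 (adjusted p up to 0.148).

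Of PPARA targets and genes of fatty acid oxidation and ketogenesis, 9 of 36 members rose and 0 fell (2 lower at an unadjusted p under 0.05, 6 by DESeq2), with a median log2 difference of 0.10 (-0.26 with DESeq2 size factors), against 6 and 4 with DESeq2 size factors and 5 and 0 with the covariate. Those that rose included enzymes of beta-oxidation, Decr1 (1.22 ± 0.26, adjusted p = 0.000235), Acaa2 (1.49 ± 0.34, adjusted p = 0.000782), Hadha (0.96 ± 0.23, adjusted p = 0.00193) and Acadl (1.25 ± 0.32, adjusted p = 0.00384), with Bdh1, which interconverts ketone bodies (1.57 ± 0.36, adjusted p = 0.000787, and adjusted p = 0.162 with the covariate). Of cholesterol synthesis genes, 7 of 25 members rose and 1 fell, with a median log2 difference of 0.45, against 4 and 1 with DESeq2 size factors and 2 and 1 with the covariate. Srebf2, the regulator of this pathway, averaged 183 ± 17.3 CPM at 20 ppm and 58.5 ± 31.8 CPM at 0 ppm (log2 difference 1.64 ± 0.26, adjusted p = 1.33e-06). Hmgcs1, an early enzyme of the pathway, rose (1.92 ± 0.45, adjusted p = 0.00138, and adjusted p = 0.123 with the covariate), and Nsdhl, a later one, fell (-1.88 ± 0.57, adjusted p = 0.017, and up to 0.104 without mouse 6).

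Of hypoxia-induced genes, 9 of 31 members rose and 1 fell, with a median log2 difference of 0.43 (0.41 with floor genes at their bounds), against 6 and 2 with DESeq2 size factors and 7 and 0 with the covariate. Hif1a, the oxygen-regulated transcription factor, had 134, 111, 108 and 94.9 CPM at 0 ppm and 260.1, 327, 328, 458 and 253 CPM at 20 ppm (log2 difference 1.54 ± 0.30, adjusted p = 6.96e-05), every treated mouse above every control. The glycolytic enzyme Eno1 averaged 1067 ± 224 CPM at 20 ppm and 314 ± 107 CPM at 0 ppm (log2 difference 1.77 ± 0.31, adjusted p = 7.05e-06), and the mitochondrial protein Higd1a 172 ± 43.9 CPM at 20 ppm and 48.4 ± 17.7 CPM at 0 ppm (log2 difference 1.82 ± 0.37, adjusted p = 0.000167). Vegfa, a common readout of hypoxia, was not called, with 44.1 ± 11.8 CPM at 20 ppm and 41.3 ± 24.4 CPM at 0 ppm. Of heat shock genes, 7 of 22 members rose and 0 fell (1 lower at an unadjusted p under 0.05, 1 by DESeq2), with a median log2 difference of 0.51, against 6 and 1 with DESeq2 size factors and 4 and 0 with the covariate. Hspa4, a nucleotide exchange factor of HSP70, had 296, 299, 386 and 417 CPM at 0 ppm and 1234, 1075, 984, 1152 and 907 CPM at 20 ppm (log2 difference 1.61 ± 0.21, adjusted p = 6.20e-09), and Bag3, an HSP70 co-chaperone, averaged 393 ± 127 CPM at 20 ppm and 129 ± 23.6 CPM at 0 ppm (log2 difference 1.61 ± 0.25, adjusted p = 7.84e-07). The mitochondrial chaperones Hspa9 (1.59 ± 0.30, adjusted p = 5.00e-05), Hspd1 (1.38 ± 0.40, adjusted p = 0.0136, and adjusted p = 0.547 with the covariate and up to 0.102 without mouse 3) and Hspe1 (1.34 ± 0.54, adjusted p = 0.0955, and adjusted p = 0.203 with DESeq2 size factors and 0.834 with the covariate and up to 0.272 without mouse 321, mouse 323, mouse 325, mouse 3, mouse 5 or mouse 6) also rose.

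Of unfolded protein response genes, 6 of 30 members rose and 1 fell, with a median log2 difference of 0.21 (0.13 with floor genes at their bounds, -0.13 with DESeq2 size factors), against 4 and 4 with DESeq2 size factors and 2 and 1 with the covariate. Those that rose were chaperones and folding enzymes of the endoplasmic reticulum, such as Manf (1.15 ± 0.28, adjusted p = 0.0021, and adjusted p = 0.253 with the covariate), Pdia6 (1.67 ± 0.38, adjusted p = 0.000786, and adjusted p = 0.338 with the covariate), Dnajb11 (1.06 ± 0.24, adjusted p = 0.000897, and adjusted p = 0.202 with the covariate) and Hspa5 (0.79 ± 0.22, adjusted p = 0.00868, and adjusted p = 0.14 with DESeq2 size factors). Of p53 targets, 9 of 29 members rose and 1 fell, with a median log2 difference of 0.89 (0.50 with floor genes at their bounds), against 7 and 4 with DESeq2 size factors and 6 and 2 with the covariate. Mdm2, the ubiquitin ligase of p53, averaged 51.9 ± 15.7 CPM at 20 ppm and 11.9 ± 8.49 CPM at 0 ppm (log2 difference 2.11 ± 0.45, adjusted p = 0.000279), Gadd45b 73.4 ± 19.1 CPM at 20 ppm and 16.2 ± 12.4 CPM at 0 ppm (log2 difference 2.171 ± 0.43, adjusted p = 0.000101), and Trp53 itself 89.1 ± 9.95 CPM at 20 ppm and 46.2 ± 24.4 CPM at 0 ppm (log2 difference 0.94 ± 0.25, adjusted p = 0.00529, and adjusted p = 0.102 with DESeq2 size factors and 0.121 with the covariate and up to 0.106 without mouse 6). Btg2, an antiproliferative gene, averaged 53.03 ± 35.7 CPM at 20 ppm and 177 ± 46.3 CPM at 0 ppm (log2 difference -1.73 ± 0.35, adjusted p = 0.000127). Cdkn1a, the best known p53 target, was not called, with 44.9 ± 24.8 CPM at 20 ppm and 50.5 ± 14.4 CPM at 0 ppm (log2 difference -0.16 ± 0.41, adjusted p = 0.865).

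Of cell cycle genes, 5 of 40 members rose and 0 fell (3 lower at an unadjusted p under 0.05, 6 by DESeq2), with a median log2 difference of 0.47 (0.39 with floor genes at their bounds), against 2 and 4 with DESeq2 size factors and 1 and 3 with the covariate. Pcna, the replication clamp, averaged 118 ± 32.6 CPM at 20 ppm and 64.3 ± 18.6 CPM at 0 ppm (log2 difference 0.88 ± 0.26, adjusted p = 0.0133, and adjusted p = 0.172 with DESeq2 size factors and 0.232 with the covariate), and Cdc6, a replication licensing factor, averaged 17.2 ± 6.77 CPM at 20 ppm and 0.765 ± 1.53 CPM at 0 ppm (log2 difference 4.35 ± 1.26, adjusted p = 0.0125). Mki67 was not called, with 9.67 ± 2.93 CPM at 20 ppm and 19.5 ± 11.1 CPM at 0 ppm. Of immediate early genes, 2 of 25 members rose and 3 fell, with a median log2 difference of -0.27, against 1 and 3 with DESeq2 size factors and 1 and 1 with the covariate. Fosl1, which encodes the AP-1 subunit FRA1, had 0, 0, 0 and 0 CPM at 0 ppm and 24.6, 61.4, 177, 262 and 45.01 CPM at 20 ppm. Its controls held no more than 3 counts each, so Fosl1 was at least 84.9-fold higher (adjusted p = 1.04e-05), although the treated mice differed widely. Of clock genes, 4 of 23 members rose and 1 fell, with a median log2 difference of 0.35 (0.24 with floor genes at their bounds, -0.03 with DESeq2 size factors). Bhlhe40, a repressor of the clock, averaged 483 ± 40.8 CPM at 20 ppm and 145 ± 40.6 CPM at 0 ppm (log2 difference 1.74 ± 0.29, adjusted p = 2.67e-06), Clock averaged 185 ± 79.5 CPM at 20 ppm and 54.2 ± 14.8 CPM at 0 ppm (log2 difference 1.77 ± 0.33, adjusted p = 4.07e-05), and Nr1d1, which encodes REV-ERB alpha, averaged 6.94 ± 3.37 CPM at 20 ppm and 45.7 ± 46.1 CPM at 0 ppm (log2 difference -2.70 ± 0.55, adjusted p = 0.00015), with overlap between the groups. Time of day at necropsy was not given by library, and its part was not tested.

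Of genes for apoptosis and shedding, 8 of 25 members rose and 2 fell, with a median log2 difference of 0.61 (0.43 with floor genes at their bounds), against 6 and 5 with DESeq2 size factors and 4 and 1 with the covariate. Besides Gsdmd, the members called were regulators of death receptor signalling and of mitochondria: Ripk1 averaged 137.4 ± 28.99 CPM at 20 ppm and 37.8 ± 9.57 CPM at 0 ppm (log2 difference 1.86 ± 0.33, adjusted p = 1.54e-05), Cflar, an inhibitor of caspase-8, averaged 77.6 ± 23.01 CPM at 20 ppm and 20.4 ± 6.10 CPM at 0 ppm (log2 difference 1.93 ± 0.40, adjusted p = 0.000194), and the antiapoptotic Mcl1 averaged 234 ± 96.9 CPM at 20 ppm and 69.98 ± 27.03 CPM at 0 ppm (log2 difference 1.74 ± 0.40, adjusted p = 0.00102, and adjusted p = 0.181 with the covariate). Birc2 (1.44 ± 0.36, adjusted p = 0.00236) and Birc3 (2.08 ± 0.49, adjusted p = 0.0015), ligases of the same pathway, rose, and the proapoptotic Bcl2l11 fell (-1.61 ± 0.60, adjusted p = 0.0695, and adjusted p = 0.151 with the covariate and up to 0.201 without mouse 321, mouse 325, mouse 3 or mouse 5). Of junction and cytoskeleton genes, 6 of 30 members rose and 2 fell, with a median log2 difference of 0.12 (-0.22 with DESeq2 size factors), against 3 and 6 with DESeq2 size factors and 2 and 0 with the covariate. Jup, plakoglobin, averaged 382 ± 105 CPM at 20 ppm and 123 ± 64.3 CPM at 0 ppm (log2 difference 1.63 ± 0.31, adjusted p = 5.00e-05), Ctnnb1, beta-catenin, 485 ± 57.2 CPM at 20 ppm and 274 ± 49.8 CPM at 0 ppm (log2 difference 0.83 ± 0.21, adjusted p = 0.00337, and adjusted p = 0.131 with the covariate), and Dsc2, a desmosomal cadherin, 142 ± 35.5 CPM at 20 ppm and 280.4 ± 61.6 CPM at 0 ppm (log2 difference -0.98 ± 0.25, adjusted p = 0.00342, and adjusted p = 0.159 with the covariate).

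Antigen presentation genes held many lower members: 4 of 39 members rose and 11 fell, with a median log2 difference of 0.03 (0.02 with floor genes at their bounds, -0.18 with DESeq2 size factors), against 2 and 11 with DESeq2 size factors and 2 and 8 with the covariate. Beside H2-D1, B2m, the light chain of class I molecules, averaged 149 ± 20.2 CPM at 20 ppm and 325 ± 70.2 CPM at 0 ppm (log2 difference -1.13 ± 0.30, adjusted p = 0.00573, and adjusted p = 0.125 with the covariate). Tapbp, tapasin, averaged 17.7 ± 7.68 CPM at 20 ppm and 105 ± 34.2 CPM at 0 ppm (log2 difference -2.56 ± 0.45, adjusted p = 8.51e-06), and Tap2, a subunit of the peptide transporter, averaged 18.97 ± 10.7 CPM at 20 ppm and 109 ± 27.1 CPM at 0 ppm (log2 difference -2.51 ± 0.46, adjusted p = 2.52e-05). H2-T3, a nonclassical class I molecule of intestinal epithelium, had 481, 373, 512 and 302 CPM at 0 ppm and 161, 126, 119, 67.02 and 167 CPM at 20 ppm (log2 difference -1.70 ± 0.30, adjusted p = 1.02e-05). The class II genes H2-Ab1 (-1.27 ± 0.42, adjusted p = 0.0357), H2-DMb1 (-2.19 ± 0.59, adjusted p = 0.00621) and Cd74 (-1.32 ± 0.40, adjusted p = 0.0203), the immunoproteasome subunits Psmb9 (-0.99 ± 0.29, adjusted p = 0.013, and up to 0.117 without mouse 6) and Psmb10 (-0.79 ± 0.25, adjusted p = 0.0227, and adjusted p = 0.345 with the covariate and up to 0.111 without mouse 327 or mouse 6) and the regulator Irf1 (-0.68 ± 0.25, adjusted p = 0.0646, and adjusted p = 0.165 with the covariate and up to 0.159 without mouse 327, mouse 328, mouse 3 or mouse 6) fell with them. The 4 members that rose were interferon-induced effectors: Mx1 (3.95 ± 0.91, adjusted p = 0.00102), Gbp2 (2.46 ± 0.62, adjusted p = 0.00322), Gbp3 (1.26 ± 0.38, adjusted p = 0.0182, and adjusted p = 0.109 with DESeq2 size factors and 0.156 with the covariate) and Oas1a (1.03 ± 0.39, adjusted p = 0.0715, and adjusted p = 0.226 with DESeq2 size factors and 0.298 with the covariate and up to 0.641 without mouse 321, mouse 3, mouse 5, mouse 6 or mouse 7).

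Among T cell and intraepithelial lymphocyte markers, 2 of 6 were called lower and 0 higher. The 6 markers of T cells and intraepithelial lymphocytes summed to 418 to 650 CPM at 0 ppm and 189 to 477 CPM at 20 ppm, where mouse 321 alone was above 266 CPM. Of the 6, Gzmb, a granzyme, averaged 4.43 ± 2.94 CPM at 20 ppm and 34.98 ± 12.1 CPM at 0 ppm (log2 difference -2.96 ± 0.74, adjusted p = 0.00251), and Cd3g, a chain of the T cell receptor complex, 11.4 ± 1.92 CPM at 20 ppm and 56.2 ± 26.5 CPM at 0 ppm (log2 difference -2.30 ± 0.68, adjusted p = 0.0145, and adjusted p = 0.178 with the covariate). Cd3e was not called, with 13.7 ± 3.72 CPM at 20 ppm and 39.3 ± 11.6 CPM at 0 ppm, nor was Itgae, with 49.03 ± 9.79 CPM at 20 ppm and 43.00 ± 27.4 CPM at 0 ppm. B2m, class I and immunoproteasome genes are used by lymphocytes as well as enterocytes, and the part of the lymphocyte markers in these differences was not tested. Plasma and B cell markers summed to 413 to 1067 and 1635 to 3793 CPM, and Jchain, the joining chain of secreted IgA and IgM, averaged 2416 ± 722 CPM at 20 ppm and 644 ± 257 CPM at 0 ppm (log2 difference 1.91 ± 0.40, adjusted p = 0.000244). Jchain was the 1 of these 4 markers that was called (3 higher and 0 lower at an unadjusted p under 0.05). The higher sum rests largely on this gene. Of 167 immunoglobulin variable segments tested, 21 rose and 4 fell (median log2 difference 1.05 (0.54 with floor genes at their bounds)), close to the 12.4% and 3.5% of all genes.

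Of epithelial defence genes, 7 of 29 members rose and 3 fell, with a median log2 difference of 1.04 (0.26 with floor genes at their bounds), against 5 and 5 with DESeq2 size factors and 3 and 1 with the covariate. S100a6 averaged 201 ± 66.6 CPM at 20 ppm and 46.1 ± 33.8 CPM at 0 ppm (log2 difference 2.13 ± 0.39, adjusted p = 1.76e-05), S100a10 923 ± 140.4 CPM at 20 ppm and 466 ± 158 CPM at 0 ppm (log2 difference 0.99 ± 0.23, adjusted p = 0.000896), and the chemokine Cxcl16 384 ± 155 CPM at 20 ppm and 155 ± 52.2 CPM at 0 ppm (log2 difference 1.31 ± 0.29, adjusted p = 0.000546). Il33, an alarmin, averaged 33.2 ± 10.7 CPM at 20 ppm and 4.15 ± 2.79 CPM at 0 ppm (log2 difference 3.01 ± 0.84, adjusted p = 0.00902, and adjusted p = 0.119 with the covariate). Naip1, an inflammasome sensor of bacterial proteins, averaged 83.3 ± 7.54 CPM at 20 ppm and 178 ± 47.9 CPM at 0 ppm (log2 difference -1.09 ± 0.28, adjusted p = 0.004, and adjusted p = 0.125 with the covariate), Muc13, a mucin of the apical membrane, 1213 ± 209 CPM at 20 ppm and 2122 ± 355 CPM at 0 ppm (log2 difference -0.81 ± 0.27, adjusted p = 0.0413, and adjusted p = 0.451 with the covariate and up to 0.115 without mouse 327 or mouse 6), and Pigr, the carrier of IgA across the epithelium, 279.9 ± 129.9 CPM at 20 ppm and 544 ± 150.2 CPM at 0 ppm (log2 difference -0.96 ± 0.34, adjusted p = 0.0511, and up to 0.172 without mouse 321, mouse 327, mouse 5 or mouse 6). Among nuclear receptors and retinoid genes, 6 of 30 members rose and 1 fell, with a median log2 difference of 0.27 (0.00 with floor genes at their bounds, -0.07 with DESeq2 size factors), against 2 and 5 with DESeq2 size factors and 1 and 0 with the covariate. Vdr, the vitamin D receptor, averaged 328 ± 142 CPM at 20 ppm and 763 ± 135 CPM at 0 ppm (log2 difference -1.22 ± 0.31, adjusted p = 0.0029, and adjusted p = 0.119 with the covariate), and Rbp2, the retinol carrier of enterocytes, averaged 13352 ± 2326 CPM at 20 ppm and 5538 ± 821 CPM at 0 ppm (log2 difference 1.27 ± 0.39, adjusted p = 0.0222).

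Markers of the remaining cell types were also set beside these lists. Smooth muscle markers summed to 200 to 892 CPM at 0 ppm and 151 to 293 CPM at 20 ppm, and 5 of 6 fell, among them Myh11, which averaged 21.1 ± 18.5 CPM at 20 ppm and 114 ± 71.3 CPM at 0 ppm (log2 difference -2.41 ± 0.49, adjusted p = 0.000131), and Des, 31.3 ± 8.09 CPM at 20 ppm and 114 ± 67.1 CPM at 0 ppm (log2 difference -1.85 ± 0.42, adjusted p = 0.000704). Goblet cell markers summed to 4439 to 5031 and 6537 to 11895 CPM, and Fcgbp, a mucus protein, averaged 3439 ± 357 CPM at 20 ppm and 1139 ± 376 CPM at 0 ppm (log2 difference 1.59 ± 0.32, adjusted p = 0.000132). Tuft cell markers summed to 68.1 to 114 and 133 to 203 CPM and macrophage markers to 94.5 to 196 and 202 to 240 CPM, with C1qb at 129 ± 15.96 CPM at 20 ppm and 57.2 ± 12.03 CPM at 0 ppm (log2 difference 1.17 ± 0.33, adjusted p = 0.00849, and adjusted p = 0.224 with the covariate). Single genes were called here, 1 of 5 goblet, 1 of 6 tuft and 1 of 5 macrophage markers. Fcgbp was the goblet gene and C1qb the macrophage gene. Paneth markers summed to 388 to 2092 and 331 to 1475 CPM, with Mmp7 lower (-1.87 ± 0.59, adjusted p = 0.0259, and up to 0.226 without mouse 7) and Itln1 at 0 in all 9 libraries. Fibroblast, endothelial, enteroendocrine, erythrocyte, mast cell, adipocyte and Brunner gland sums overlapped between the groups, with Cfd at 0 in all 9 libraries. The part of these cells in the results was not tested.

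Genes of protein synthesis and turnover rose in number. Of cytosolic ribosomal protein genes 34 rose and 0 fell of 78 (0 lower at an unadjusted p under 0.05, 5 by DESeq2, median log2 difference 0.68 (0.63 with floor genes at their bounds), 25 and 4 with DESeq2 size factors and 5 and 0 with the covariate), led by Rpl18 at 1469.7 ± 292 CPM at 20 ppm and 434 ± 216 CPM at 0 ppm (log2 difference 1.76 ± 0.27, adjusted p = 3.86e-07). Near-identical processed pseudogenes exist for many of them, so their counts may be shared. Of translation initiation factors 19 rose and 0 fell of 53 (1 lower at an unadjusted p under 0.05, 4 by DESeq2, median log2 difference 0.74 (0.49 with floor genes at their bounds), 17 and 2 with DESeq2 size factors), and Eif4g2 averaged 807 ± 251 CPM at 20 ppm and 150.3 ± 72.8 CPM at 0 ppm (log2 difference 2.42 ± 0.32, adjusted p = 1.01e-08). Of proteasome subunits 14 rose and 1 fell of 34 (median log2 difference 0.42, 14 and 2 with DESeq2 size factors and 10 and 0 with the covariate), with Psma6 at 339 ± 63.7 CPM at 20 ppm and 101 ± 29.6 CPM at 0 ppm (log2 difference 1.74 ± 0.27, adjusted p = 4.98e-07). For these families the share called was above 12.4%, and a large part of the called members averaged more than 100 CPM, where 46.4% of 1477 genes from 100 to 300 CPM and 56.7% of those above 300 CPM were called higher in any case.

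In mitochondria, 18 rose and 1 fell of 75 (median log2 difference 0.50 (0.48 with floor genes at their bounds), 14 and 4 with DESeq2 size factors and 6 and 0 with the covariate) for ribosomal proteins, led by Mrpl54 at 109 ± 19.6 CPM at 20 ppm and 32.5 ± 8.11 CPM at 0 ppm (log2 difference 1.75 ± 0.27, adjusted p = 5.39e-07). Of complex I subunits 9 rose and 0 fell of 35 (0 lower at an unadjusted p under 0.05, 2 by DESeq2, median log2 difference 0.35, 3 and 1 with DESeq2 size factors and 3 and 0 with the covariate), and of the subunits of complexes II to V 15 rose and 1 fell of 44 (median log2 difference 0.34 (0.12 with floor genes at their bounds, -0.01 with DESeq2 size factors), 8 and 3 with DESeq2 size factors and 7 and 0 with the covariate). Ndufb5 averaged 277 ± 46.3 CPM at 20 ppm and 107 ± 18.3 CPM at 0 ppm (log2 difference 1.38 ± 0.25, adjusted p = 1.57e-05), and Atp5e, a subunit of ATP synthase, averaged 1096 ± 281 CPM at 20 ppm and 303 ± 98.2 CPM at 0 ppm (log2 difference 1.85 ± 0.29, adjusted p = 7.49e-07). With the covariate, cytosolic ribosomal proteins went from 34 to 5 higher calls, translation initiation factors from 19 to 14 and complex I subunits from 9 to 3.

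**Figure D3:**
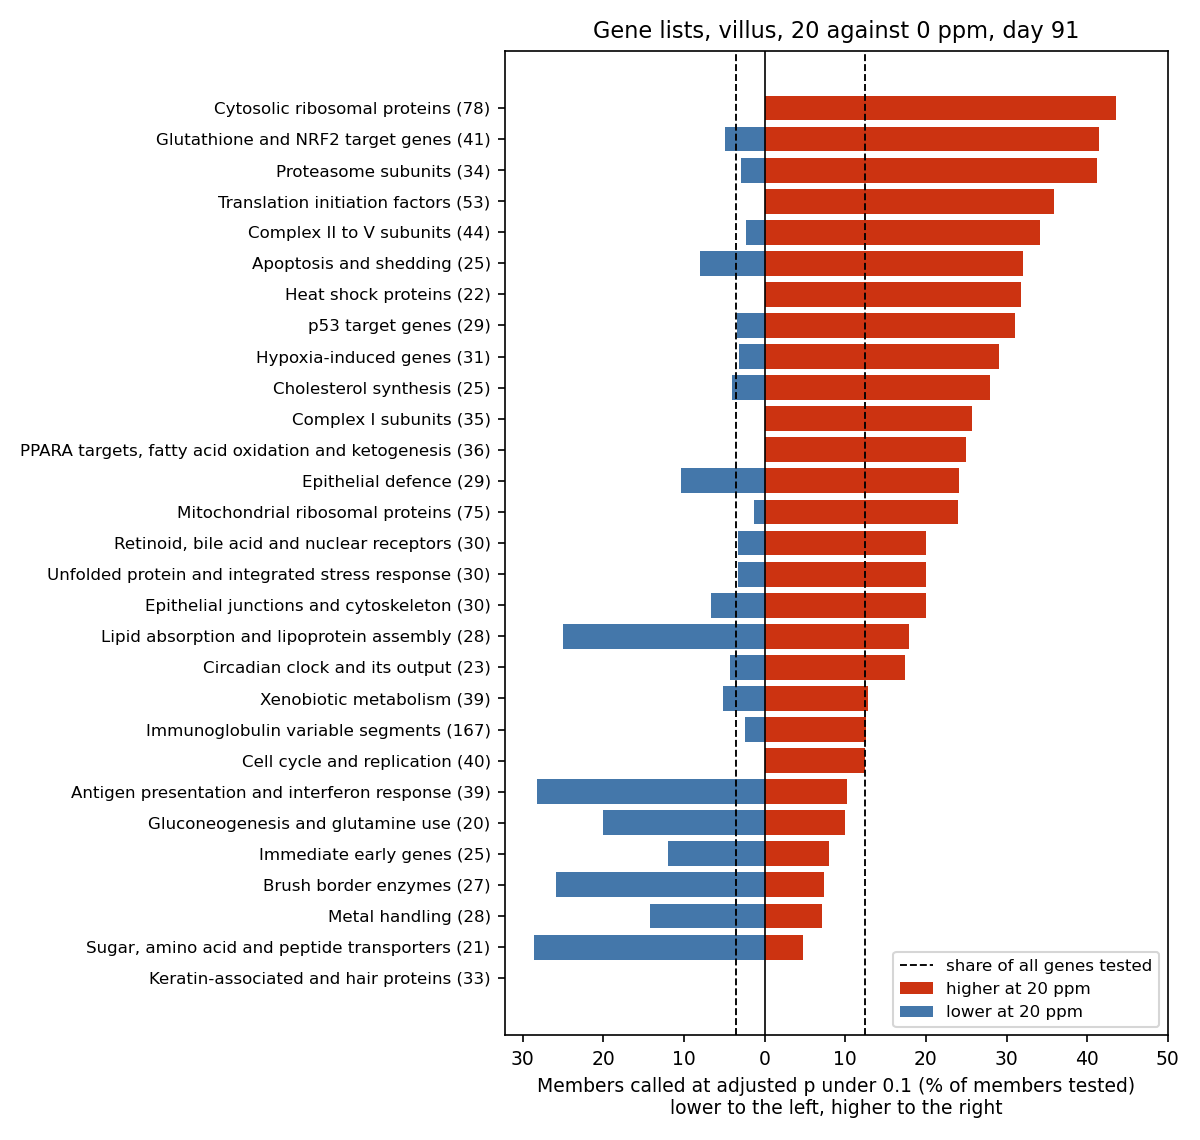
Percent of the tested members of each gene list that were called higher (right) or lower (left) at 20 against 0 ppm, with dashed lines at the shares of all genes, 12.4% and 3.5%. Cytosolic ribosomal proteins, with 34 of 78 higher, and glutathione and NRF2 targets, with 17 of 41, extend far to the right, and antigen presentation, with 11 of 39 lower, and brush border and transporter genes far to the left. The dashed shares cover genes of every level, while calls followed abundance.

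Probes for genes that the intestine is not known to use were examined because more of them were seen at 20 ppm. Of 1659 probes for olfactory and vomeronasal receptors, 81 to 121 were detected at 0 ppm and 244 to 700 at 20 ppm, or 80 to 115 and 172 to 680 at equal depth. Mouse 327 had 700 and mouse 321 had 505, and the other treated mice had at most 283. Their share of all reads was 0.0452% to 0.0822% at 0 ppm and 0.0221% to 0.0957% at 20 ppm except for mouse 327, which had 0.276%. Of 974 such genes tested, 25 were called higher and 17 lower, and the fitted median of 2.97 became 0 with floor genes at their bounds. The split turned with the setting, with 19 higher and 23 lower with DESeq2 size factors, 57 and 2 with thinned counts, 2 and 59 with the covariate and 20 and 0 by DESeq2. Of 33 keratin-associated genes tested, edgeR called 0, 10 were higher and 2 lower at an unadjusted p under 0.05, and DESeq2 called 0 higher and 0 lower. With mice 321 and 327 both left out, a choice made after seeing these values, 1553 genes were called in all (1243 higher, 312 lower) in place of 3513.

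A second reference did not use the 4 control libraries: 20 ppm against the mean of 0.1 and 1.4 ppm in the villus on day 91. Its libraries also had fewer probes detected at equal depth than those at 20 ppm. They had 13856 to 16479 at 0.1 ppm and 14671 to 16672 at 1.4 ppm, against 17347 to 19849 at 20 ppm. This reference is therefore not free of the difference in detection. By 1 probe a gene it called 5172 of 19020 genes (27.2%), 4346 higher (22.8%) and 826 lower (4.34%). Of the 2359 genes called higher against 0 ppm, 1621 (68.7%) were also called higher against the low concentrations, and of the 666 called lower, 443 (66.5%) were also lower. Both comparisons share the 20 ppm libraries. Pck1 was at -3.62 ± 0.56, adjusted p = 3.10e-07 against the low concentrations, Apob at -2.08 ± 0.31, adjusted p = 1.12e-07, Gsta2 at 1.89 ± 0.35, adjusted p = 1.79e-05 and Safb at 1.35 ± 0.16, adjusted p = 4.09e-11. Most of the clearest genes of this reference were those already named: Agps (2.23 ± 0.23, adjusted p = 4.23e-13), Rbbp6 (2.11 ± 0.22, adjusted p = 4.23e-13) and Stk40 (1.94 ± 0.20, adjusted p = 4.23e-13). Epha2, an ephrin receptor kinase, averaged 1131 ± 281 CPM at 20 ppm and 196 ± 34.6 CPM at 0 ppm and was at 2.42 ± 0.25, adjusted p = 7.41e-13, and Trmt10a, a tRNA methyltransferase, was at 3.42 ± 0.37, adjusted p = 2.00e-12. Of the antigen presentation list, 12 members were lower against this reference and 6 higher, of the brush border list 11 and 2, and of the NRF2 list 5 and 15.

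**Figure D4:**
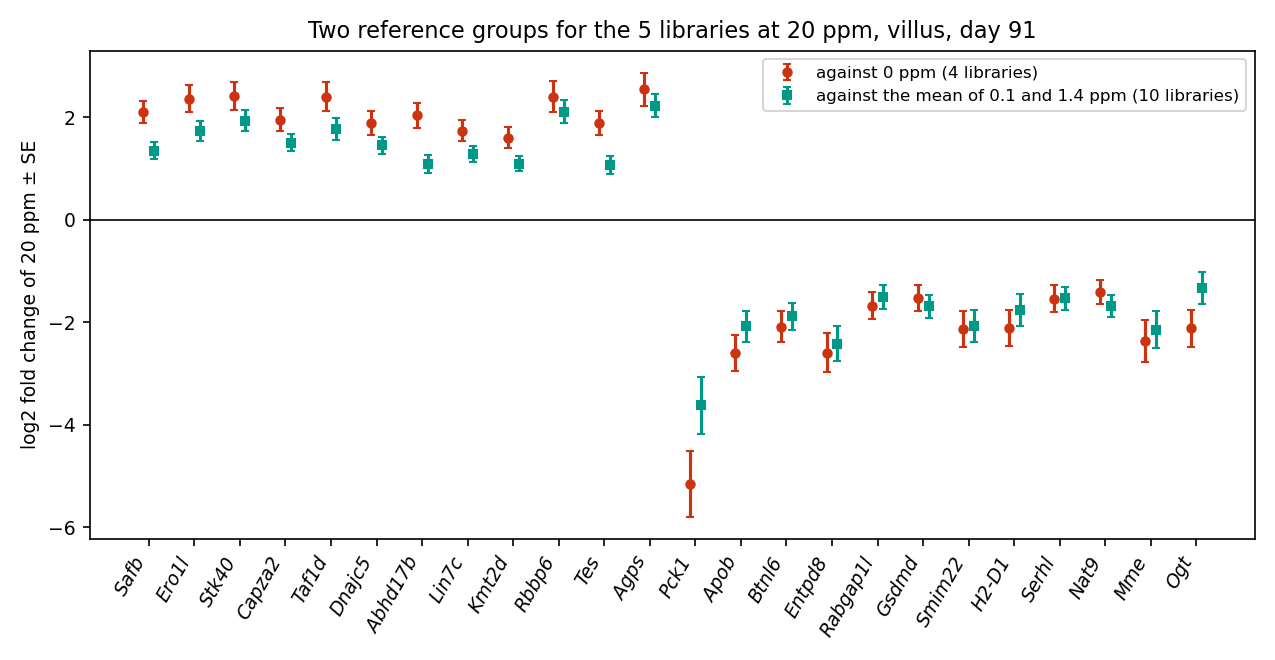
Log2 differences at 20 ppm (y axis, bars are standard errors) of the 24 named genes (x axis), against 0 ppm (circles) and against the mean of 0.1 and 1.4 ppm (squares). Pck1 lies lowest, at -5.15 and -3.62, and Agps highest, at 2.55 and 2.23, and the 5 libraries at 20 ppm are in both comparisons.

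The levels at 20 ppm were then placed in the full series of concentrations, given as mean ± SD in CPM at 0, 0.1, 1.4, 5, 20, 60 and 180 ppm in the villus on day 91. Pck1 was at 805 ± 482, 353 ± 69.1, 218 ± 145, 201 ± 172, 22.5 ± 6.95, 13.5 ± 6.06 and 15.8 ± 11.7 CPM. Its mean was lower at each step up to 20 ppm, although those at 1.4 and 5 ppm lay within their spread, and from 20 ppm on the means lay within their spread. Apob was at 671 ± 238, 421 ± 121, 524 ± 132, 175 ± 73.2, 111 ± 43.9, 94.9 ± 11.2 and 125 ± 51.5 CPM, with the larger step between 1.4 and 5 ppm. Mgam was at 5659 ± 1239.6, 6646 ± 951, 4573 ± 764, 4618 ± 486, 1988 ± 342, 1474 ± 107 and 1026 ± 397 CPM and was lower in every group from 20 ppm on.

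Gsta2 was at 279 ± 196, 705 ± 313, 646 ± 70.3, 1274 ± 312, 2508 ± 782, 2459 ± 344 and 1907 ± 595 CPM, so the means from 20 ppm on were close to each other within their spread. Stk40 was at 104 ± 35.6, 152 ± 49.3, 137.3 ± 7.82, 252 ± 69.4, 553 ± 222, 488 ± 83.2 and 507 ± 163 CPM and Safb at 89.6 ± 15.8, 127 ± 19.02, 178 ± 39.3, 238 ± 38.6, 383 ± 76.1, 339 ± 62.7 and 259 ± 40.1 CPM. Fabp2 was at 24622 ± 3681, 31462 ± 6390.2, 40435 ± 12310.5, 56032 ± 14616, 110699 ± 25082, 61599 ± 19975 and 41894 ± 18730.2 CPM, and Gclm at 86.1 ± 30.3, 159 ± 29.3, 159 ± 17.5, 259 ± 95.4, 334 ± 104, 178 ± 29.2 and 115 ± 13.1 CPM. Gsta2, Stk40, Safb, Fabp2 and Gclm all had their highest mean of the 7 at 20 ppm. The main edgeR fit called none of the 5 between 20 and 60 ppm, while DESeq2 called Gclm (log2 0.97, adjusted p = 0.0222).

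**Figure D5:**
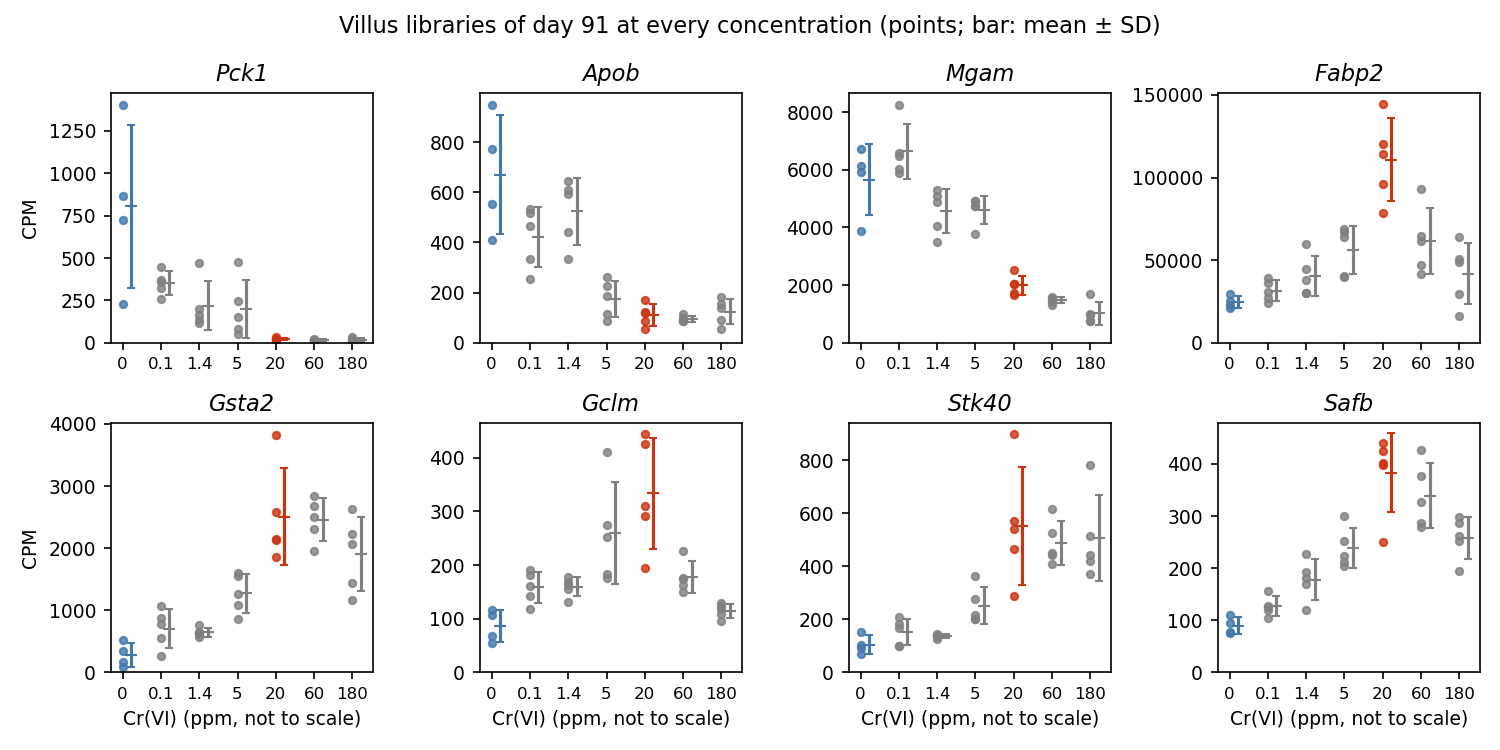
CPM (y axis) of 8 genes in the villus on day 91 at each of the 7 concentrations of Cr(VI) in ppm (x axis, evenly spaced). Points are libraries and bars the mean ± SD. Pck1 falls from a mean of 805 CPM at 0 ppm to 22.5 CPM at 20 ppm, and 5 of the genes have their highest mean at 20 ppm.

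Compared directly with 60 ppm, the 20 ppm villus differed in 2 of 19020 genes (0.0105%) at an adjusted p under 0.1, 1 in each direction (0.00526%), with 2190 probes at an unadjusted p under 0.05, and DESeq2 called 211 genes. Mcpt1, a mucosal mast cell protease, had 7.78 ± 3.97 CPM at 20 ppm and 212 ± 151 CPM at 60 ppm (20 minus 60 ppm, log2 -4.76 ± 0.87, adjusted p = 0.00547). Gzma, a granzyme of lymphocytes, had 202 ± 118 and 52.2 ± 8.07 CPM (log2 1.95 ± 0.39, adjusted p = 0.0227), and this call was lost with thinned counts (adjusted p = 0.112) and without mouse 321 (adjusted p = 0.674) or any of the 60 ppm mice 402, 403, 404 and 405 (adjusted p = 0.119 to 0.322). Neither was called between 20 and 0 ppm (0.76 ± 0.95, adjusted p = 0.654 and -0.69 ± 0.39, adjusted p = 0.233). Fabp2 was at 0.85 ± 0.32, adjusted p = 0.55 and Gclm at 0.91 ± 0.29, adjusted p = 0.498, not called by edgeR, while DESeq2 called Gclm (0.97, adjusted p = 0.0222). Without mouse 328 the count was 47 genes.

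The effect in the villus was compared with that in the crypt of the same doses on day 91, as the difference of the differences. It was called in 58 of 19020 genes (0.305%), all with a positive difference, villus minus crypt, beside a median of 0.41 over all genes. In the crypt the median number of probes detected at equal depth was 18317 at 0 ppm and 18957 at 20 ppm. The villus side alone thus holds the wide detection gap described above, and its part in these calls was not tested. Stk40 averaged 155 ± 39.9 and 198 ± 32.8 CPM in the crypt at 0 and 20 ppm, against 104 ± 35.6 and 553 ± 222 CPM in the villus (difference of effects 2.05 ± 0.35, adjusted p = 0.000662, and 1.86, adjusted p = 0.0695, with the mouse as a replicate block). Taf1d averaged 170.3 ± 22.6 and 255 ± 32.5 CPM in the crypt and 74.2 ± 43.1 and 393 ± 81.1 CPM in the villus (1.82 ± 0.37, adjusted p = 0.00882, blocked adjusted p = 0.0263). Safb averaged 188 ± 42.8 and 272 ± 69.96 CPM in the crypt (1.56 ± 0.28, adjusted p = 0.000977), and its call was lost with the block (adjusted p = 0.11). Adora2a, an adenosine receptor, and Mss51, whose villus controls were all at 0, were at least 34.9-fold and 16.6-fold higher in the villus at 20 ppm, with adjusted p = 0.000171 and 0.00151 for the interaction and 0.00264 and 0.0799 with the block. By probe, 70 genes were called (69 higher, 1 lower) and 35 with the block (31 higher, 4 lower). Pck1 (-1.86 ± 0.77, adjusted p = 0.29), Apob (-1.34 ± 0.47, adjusted p = 0.233) and Mme (-0.72 ± 0.54, adjusted p = 0.63) were not called in this comparison.

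The last comparison set the effect of 20 ppm in the villus on day 91 against that on day 8. It was called in 3954 of 19020 genes (20.8%), 3416 higher (18%) and 538 lower (2.83%), beside a median log2 difference of 0.84 over all genes. At equal depth the median number of probes detected on day 8 was 15056 at 0 ppm and 15174 at 20 ppm. On day 91 it was 13923.5 and 18629. The comparison thus holds the detection gap of day 91, and the part of that gap in these calls was not tested. Abhd17b averaged 135 ± 25.03 and 108 ± 33.04 CPM on day 8 at 0 and 20 ppm, and 58.5 ± 23.1 and 241 ± 67.7 CPM on day 91 (difference of effects 2.36 ± 0.33, adjusted p = 9.46e-07). The other clearest genes were Mtfr1, a mitochondrial fission regulator (2.27 ± 0.33, adjusted p = 2.80e-06), Kmt2d (1.84 ± 0.28, adjusted p = 4.40e-06), Capns1, the small subunit of calpain (2.32 ± 0.36, adjusted p = 1.12e-05), and Mss51, whose fitted value has no bound (adjusted p = 9.46e-07). Gclm averaged 120.2 ± 29.99 and 89.7 ± 31.2 CPM on day 8, so the effect on day 91 was the larger (2.37 ± 0.45, adjusted p = 0.000209).

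Apob averaged 279.6 ± 154 and 189 ± 52.4 CPM on day 8, and its fall was larger on day 91 (-2.03 ± 0.48, adjusted p = 0.00337), as was that of Mme (-2.16 ± 0.56, adjusted p = 0.00805). Gsta2 averaged 279.9 ± 104 and 737 ± 325 CPM on day 8 (1.77 ± 0.64, adjusted p = 0.0557, and up to 0.135 without mouse 327, mouse 3, mouse 5 or the day 8 mice 47 and 369 in turn). Pck1 had 745 ± 337 and 45.4 ± 21.7 CPM on day 8, and the difference between the days was not called (-1.11 ± 0.79, adjusted p = 0.385). Of the NRF2 list 11 members were called with the higher effect on day 91 and 4 with the lower, of cytosolic ribosomal proteins 25 and 3, and of olfactory and vomeronasal receptors 243 of 974 and 6, to be read against 18% and 2.83% of all genes. The median difference of effects was -0.0022 for the NRF2 list and 0.40 for ribosomal proteins, both under the 0.84 of all genes.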

How the data were processed

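Hybridisation-ligation counts (TempO-Seq) of 9 villus libraries of day 91, 5 at 20 ppm and 4 at 0 ppm, 1 mouse each, were analysed within the deposited table of 71 mice in 28 groups. The values are raw whole-number counts per probe as the authors deposited them. They were made from single-end HiSeq reads with bcl2fastq 2.17.1.14 and Bowtie (per the submitters' processing notes), and the authors had removed libraries of low depth or diversity. No columns were left unmapped. Groups came from the labels, and replicates were separate mice. Members and gene lists were chosen with earlier results of these data known.

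The main fit was edgeR 4.0.16 (R 4.3.3) with the quasi-likelihood test, TMM scaling, filterByExpr and all 28 groups in 1 model, so that the groups share 1 estimate of the spread. P-values were adjusted by the Benjamini-Hochberg method over all 26365 probes tested, with a threshold of 0.1. CPM used TMM-scaled totals. Each gene is represented by its most counted probe, and levels were not compared between genes. Values after ± are SD for CPM and standard errors for log2 differences, where adjusted p is that of edgeR unless another fit is named. A group whose libraries all held 3 counts or fewer was taken as at the floor of detection, and folds against it are lower bounds. Such bounds cover counting error only, while the standard errors come from the fit and include the spread between mice. Named genes were the 12 called higher and the 12 called lower with the smallest adjusted p that did not overlap between groups and reached 20 CPM, the 4 members of each list with the smallest adjusted p and any member needed to say what a list holds, 8 fixed marker genes (Vil1, Klf4, Pcna, Mmp7, Lyz1, Ephb2, Duox2 and Hif1a) and the 5 leading genes of each other comparison. Other genes given with values are members of the lists or markers. Some list members are counted but not reported here by name.

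Alternatives were DESeq2 size factors in edgeR, DESeq2 1.42.0, a quasi-likelihood form that estimates no dispersion for each probe, other filters, smaller sets of libraries, counts thinned to 1463938, the number of detected probes after thinning as a covariate, probes summed by gene, and each library left out in turn (43 fits, with the dispersion trend of the full fit). The size factor and covariate fits, other filters and summed probes were run for 20 against 0 ppm only. For villus against crypt the same mice gave both compartments: residuals of a mouse's own crypt and villus libraries had a median correlation of 0.168 (9 pairs, 0.0459 to 0.281) against -0.0351 between different mice, and a fit with the mouse as a replicate block was run. In a test on simulated counts for 20 against 0 ppm, with 200 of 26365 probes changed 4-fold, 80 were called, all in the right direction, and 7 others. Gene positions are from GENCODE M21 and promoters from RefSeq, both on GRCm38.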

Additional observations from a re-analysis of the deposited data

Results flagged for a closer look

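In 13 of 104 sets of 4 or 5 libraries (12.5%), 1 library stood apart from the rest of its group by Dixon's criterion, which chance does in about 1 of 20 sets of independent normal values. The measures here were CPM of genes picked from these data and marker sums, some at 0 in several libraries. The 12.5% therefore cannot be read as an excess. Among treated mice, mouse 328 had 251 CPM of Safb against 397 to 440.4 CPM in the others and 4780 CPM of Vil1 against 6677 to 7354 CPM. Mouse 327 had 1494 CPM of Ero1l against 816 to 1012 CPM. Mouse 321 had 477 CPM of summed T cell and intraepithelial lymphocyte markers against 189 to 266 CPM. Mouse 327 also had 135 CPM of fibroblast markers against 247 to 287 CPM, and 8.14 CPM of the Brunner gland marker against 0 to 1.78 CPM.

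Among controls, mouse 5 had 148 CPM of Capza2 against 303 to 318 CPM, 97.6 CPM of Lin7c against 161 to 168 CPM, and 62.8 CPM of the Brunner gland marker against 0 in the others. Mouse 7 had 54551 CPM of pancreatic acinar markers against 31.9 to 5672 CPM, 424 CPM of fibroblast markers against 141 to 183 CPM, 380 CPM of enteroendocrine markers against 453 to 466 CPM, and 4.97 CPM of erythrocyte markers against 0.

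Effects of 20 ppm that differed between the compartments by the interaction test numbered 70 genes, led by Adora2a (fitted 10.5, with its villus controls at 0), Stk40 (2.05), Safb (1.56), Mss51 (fitted 7.86, with its villus controls at 0) and Taf1d (1.82). Those that differed between days 91 and 8 numbered 4703, led by Abhd17b (2.36), Mss51 (fitted 10.2), Mtfr1 (2.27), Kmt2d (1.84) and Capns1 (2.32).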

How the results depend on the processing

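No paired analysis was possible because the mice at 20 and 0 ppm are different animals, except for villus against crypt, where the mouse as a replicate block gave 35 genes (31 higher, 4 lower) in place of 70. For 20 against 0 ppm (3513 genes, 2660 higher and 882 lower), the count moved to 2230 (1482 and 769) with the 9 libraries alone and to 1919 (1114 and 811) with the detection covariate. It stayed within 1.5 times with DESeq2 (4067, 2214 and 1960), DESeq2 size factors (3247, 1730 and 1568), the villus of day 91 alone (3171, 2312 and 896), thinned counts (4031, 2999 and 1088), no filter (3049), a mean of at least 10 counts (3119, 1955 and 1223), probes summed (2860, 1934 and 926), the form without probe dispersions (3433, 2403 and 1068) and a threshold of 0.05 (2378). Leaving out 1 library gave 2394 (without control mouse 5) to 3593 genes (without mouse 328). Of 2 choices made after seeing the data, leaving out mice 7 and 328, with the most acinar RNA, gave 3514 genes (2576 and 992), and leaving out mice 321 and 327, with the most olfactory probes, 1553 (1243 and 312). Against 0.1 and 1.4 ppm (5958, 4948 and 1065) the count moved to 3521 (2543 and 1016) with the villus of day 91 alone, 3899 (2866 and 1077) thinned and 3883 (2175 and 1785) with DESeq2, and was 3661 (without mouse 327) to 6293 with 1 library left out. Against 60 ppm (2 genes), it was 16 without probe dispersions, 1 thinned, 211 with DESeq2 and 1 to 47 (without mouse 328) with 1 library left out. Villus against crypt (70) moved to 40 without probe dispersions and 237 (197 and 41) with DESeq2, and was 19 (without mouse 327) to 278 (without control mouse 7). Day 91 against day 8 (4703) moved to 2617 without probe dispersions and was 3268 (without mouse 327) to 4971 with 1 library left out. The difference in probes detected was 4865 to 5780 with 1 library left out. The forms without probe dispersions for the other comparisons were added after seeing the data. No named gene reversed where it was called, and the causes of the moves were not tested. Low counts limited what could be seen: 496 of 2359 genes called higher had every control at the floor, and 112 of 666 called lower had every 20 ppm library there. A lone call among probes under 3 CPM rests on few counts.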
